A study of Mus musculus with 6 samples.

Results

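Pdx1, Sox9, Foxa1, Foxa2, Foxa3, Onecut2, Nr5a2 and Prox1 are transcription factor genes of the pancreas and its ducts. They were taken by name from the 23525 named genes of the authors' normalized table, which held all 8 of them. Of the 14537 genes with enough counts to test, 7 were of these 8, since Prox1 had too few counts. The libraries were total RNA from pancreatic tumour organoids, epithelial cultures grown in a dome of Matrigel, a basement membrane gel. There were 6 of them, from 3 organoid lines numbered 6, 23 and 34, made from tumours of KPC mice on the C57/Bl6 strain. Every culture carried Trp53 R172H behind a stop cassette that Pdx1-Cre removes, so the driver of recombination is the promoter of Pdx1, a gene described here. The heterozygous group (Trp53LSLR172H/+ with Pdx1-Cre, n = 3) kept a wild-type Trp53 allele, and the LOH group (loss of heterozygosity, Trp53LSLR172H/- in the same background, n = 3) lacked it. Each line gave 1 library of each genotype, so a line is a pair and a difference between lines was not tested. The description field adds "Nut" to each LOH sample name and to no heterozygous one. The labels do not say what it stands for, and its part cannot be told apart from genotype. Values are given in the order of lines 6, 23 and 34, and ages are not stated.

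During development Pdx1 marks the epithelium that becomes pancreas, and the Foxa proteins open chromatin there as pioneer factors of the endoderm. Sox9, Onecut1 and Prox1 act in bipotent progenitors and ducts, whereas Nr5a2 is a nuclear receptor best known for keeping the acinar, enzyme-secreting state. Pancreatic ductal adenocarcinoma, the tumour that KPC mice develop, has a duct-like phenotype and keeps many of these factors.

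The RefSeq start-site windows (build GRCm38.p6) held 10 windows for 6 of the 8 genes. The stretches upstream of the main transcripts of Foxa1 and Nr5a2 are shown because these 2 genes changed between the genotypes (below), in opposite directions. Foxa1-201 starts at chromosome 12 position 57546121 on the minus strand, and the 240 bases shown (chr12:57546122-57546361, minus strand) lie outside its exon. Nr5a2-201 starts at chromosome 1 position 136960448 on the minus strand, and 250 bases (chr1:136960449-136960698, minus strand) precede it. Capitals mark a match to the forkhead motif, TGTTTAC or TGTTTGC on either strand.

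Foxa1: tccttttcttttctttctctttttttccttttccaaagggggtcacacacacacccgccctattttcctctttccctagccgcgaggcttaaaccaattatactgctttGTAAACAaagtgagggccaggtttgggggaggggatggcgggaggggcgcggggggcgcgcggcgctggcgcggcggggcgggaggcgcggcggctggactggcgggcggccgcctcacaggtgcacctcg
Nr5a2: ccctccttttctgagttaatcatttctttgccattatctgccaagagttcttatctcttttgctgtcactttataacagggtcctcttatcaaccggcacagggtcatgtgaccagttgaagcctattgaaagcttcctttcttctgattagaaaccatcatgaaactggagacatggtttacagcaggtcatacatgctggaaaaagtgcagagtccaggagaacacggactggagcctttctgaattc

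The Foxa1 stretch holds 1 forkhead match, whose first base is at -141 from the RefSeq start site, and the Nr5a2 stretch holds none. Of all 32851 RefSeq windows of 250 upstream bases, 7.29% hold such a match. The Onecut letters ATCAAT (6.72% of windows) and the NR5A letters AAGGTCA (4.08%), searched on both strands, occur in neither stretch. Over all 10 windows of these genes, 2 held a forkhead match, 1 an Onecut match and 0 an NR5A match.

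Libraries held 13680458 to 27917277 expected counts (the authors' estimated reads per gene). Levels are in CPM, counts per 1000000 after TMM scaling for library composition, and a count of 3 was worth 0.1 to 0.223 CPM. Protein-coding genes took 67.9% to 73.3% of the counts in the heterozygous and 61.4% to 67.2% in the LOH group; the part of this difference in the results was not tested. Trp53 itself stood at 77.3, 76.3 and 86.5 CPM when heterozygous and at 73.5, 52.5 and 47.4 CPM with LOH. Its groups did not overlap, but it did not pass the test (log2 fold change -0.47 ± 0.22 SE, adjusted p = 0.227), and gene counts do not show which allele was read. The 16 duct markers summed to 6592 to 7417 CPM in the heterozygous and 5706 to 11952 CPM in the LOH libraries. Their levels varied widely. Krt18, a keratin, had 1469, 1808 and 1628 CPM when heterozygous and 895, 1642 and 2384 CPM with LOH. Cftr had 16.6, 2.67 and 5.51 CPM against 92.2, 50.2 and 38.9 CPM, and Sctr had 1 count over all libraries. Acinar markers were scarce (a summed level of 1.23 to 2.82 CPM over 22 markers in the heterozygous and 2.65 to 17.1 CPM in the LOH libraries), and so were endocrine markers (0.234 to 0.519 CPM and 0.113 to 0.885 CPM over 14). Fibroblast markers summed to at most 0.931 CPM in any library. Of 6 leukocyte markers Cd68 alone was tested (1.7, 1.78 and 1.84 CPM against 2.97, 6.95 and 14.7 CPM, adjusted p = 0.0713), and Ptprc, which marks all leukocytes, had at most 7 counts in any library.

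Foxa1 rose with LOH and Nr5a2 fell, and these were the only 2 of the 7 tested genes past an adjusted p of 0.05 in edgeR's quasi-likelihood test. Both reached the low-count filter's minimum (0.386 CPM) in all 6 libraries. With at least 10 counts required in every library, Nr5a2 passed and Foxa1 was not tested, beside 5.26% of genes called. Of all genes tested, 5.21% passed (3.55% higher and 1.66% lower in LOH). In RNA from whole cultures, fewer cells of a type and less RNA per cell cannot be told apart. The other 5 tested genes, Pdx1, Sox9, Foxa2, Foxa3 and Onecut2, did not pass. The median log2 fold change of the 7 was 0.52, against 0.06 over all genes tested, and 5 of the 7 estimates were above 0. Groups did not overlap in CPM for 4 of the 7 (Foxa1, Foxa2, Foxa3 and Nr5a2), beside 32.8% of all genes tested. At an unadjusted p under 0.05 the same 2 of the 7 were counted, a share near the 25.3% of all genes. With the organoid line as a block, Foxa1 passed and Nr5a2 did not, beside 1.47% of all genes (1.22% higher, 0.248% lower). DESeq2 called both, beside 9.6% of genes higher and 6.22% lower (15.8% in all). Without the LOH library of line 6, edgeR called Foxa1 alone, beside 7.5% higher and 8.68% lower (16.2% in all). In all, 44.5% of genes tested went the same way in all 3 lines, as did 5 of the 7.

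**Figure D1:**
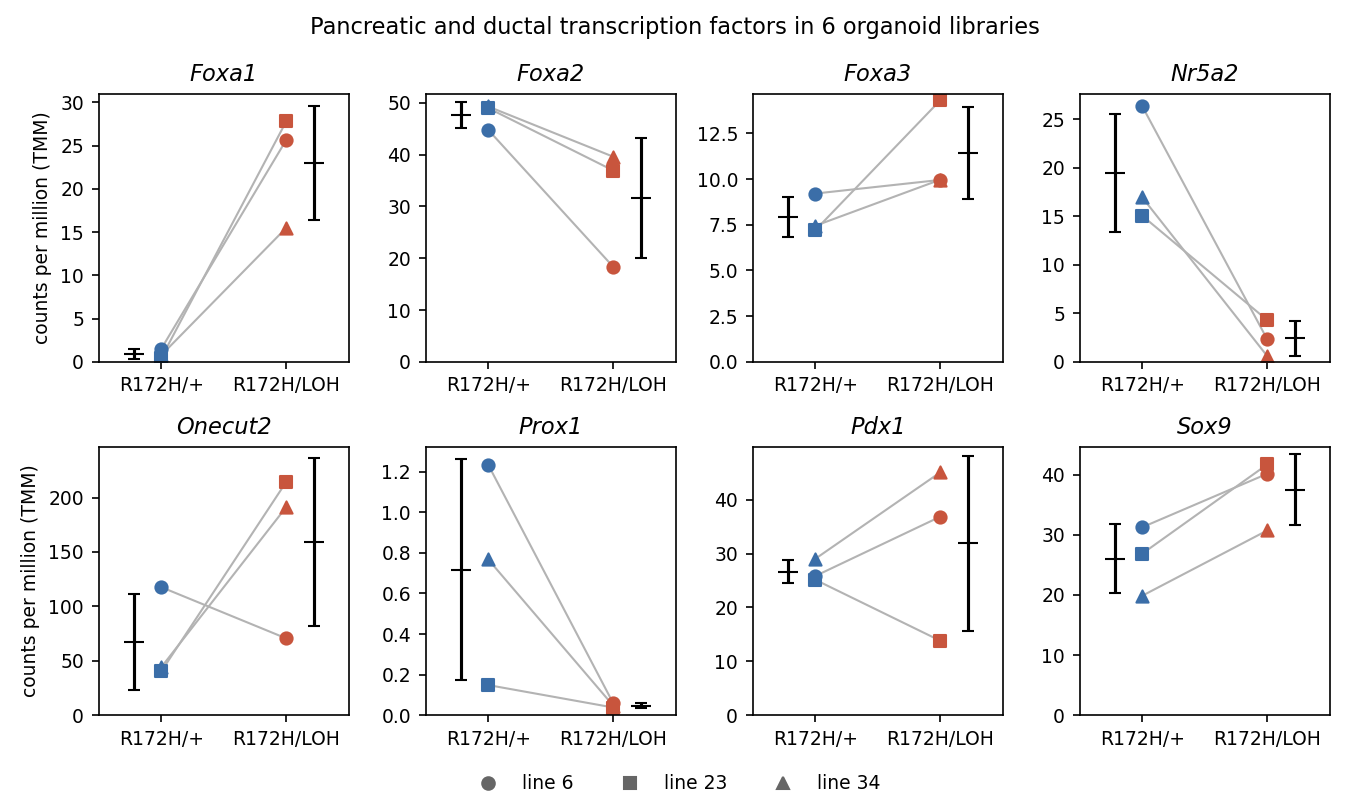
CPM (TMM scaled, linear axis from 0, a separate scale for each gene) of the 8 genes in the heterozygous (blue) and LOH (red) library of each organoid line, joined by a line, with group mean and SD (n = 3) in black. Foxa1 is at most 1.5 CPM in the heterozygous libraries and at least 15.5 CPM in the LOH libraries, and Nr5a2 is lower in LOH in all 3 lines.

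The Foxa genes encode 3 related forkhead pioneer factors. Foxa1 (12:57540628-57546916, minus strand, GRCm38) had 45, 6 and 23 counts when heterozygous and 441, 737 and 333 with LOH. In CPM these were 1.5, 0.445 and 0.768 against 25.7, 27.8 and 15.5. Every LOH library was above every heterozygous one. The fitted change was 24.4-fold higher in LOH (log2 fold change 4.61 ± 0.49 SE, adjusted p = 0.0132, and 0.0318 with the line as a block). By p it ranked 33 of 14537 genes. The log2 ratios within lines were 4.02, 5.71 and 4.19. Without any 1 of the heterozygous libraries no gene of the table passed the test, Foxa1 included (its adjusted p was 0.0674, 0.0739 and 0.091 without lines 6, 23 and 34), although its log2 fold change stayed between 4.33 and 5.15. Nor did any gene pass without both libraries of line 23 or of line 34.

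Foxa2 (2:148042877-148046969, minus strand), the paralog needed earliest in the endoderm, stood at 44.8, 49 and 49.3 CPM when heterozygous and at 18.3, 36.9 and 39.6 CPM with LOH. The LOH libraries were all lower, line 6 by the most. The difference did not pass (log2 fold change -0.59 ± 0.30 SE, adjusted p = 0.266). On the log2(TPM + 1) scale, where the median of all genes tested was itself at -0.35, Foxa2 did pass in limma, on a scale that understates changes of low genes (-1.01, adjusted p = 0.0406, beside 16% of all genes, 2.35% higher and 13.7% lower, and on log2(TPM + 0.1) beside 14.7%, 2.24% higher and 12.5% lower). Foxa3 (7:19013284-19023538, minus strand), better known from liver and gut, had 9.21, 7.2 and 7.44 CPM against 9.95, 14.3 and 9.97 CPM in LOH. Its groups did not overlap, by a narrow margin, and it did not pass (0.52 ± 0.26 SE, adjusted p = 0.252).

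Set per length, the paralogs had other proportions in the LOH libraries. Foxa1 made up 1.72%, 0.475% and 0.819% of the summed Foxa TPM (transcripts per 1000000, the authors' abundance per length) when heterozygous and 36.1%, 25.2% and 16.2% with LOH. Foxa2 went from 81.4%, 86.9% and 86.2% to 41.3%, 53.8% and 67%. Both sets of shares lay apart, by 24.8 and -30.8 percentage points between the group means. The exact two-sided permutation test gave p = 0.1 for each (0.15 adjusted over the 3 paralogs), the smallest that 3 against 3 libraries allow. For Foxa3 the difference was 5.96 points (exact permutation p = 0.2, adjusted 0.2), and the groups overlapped. The summed Foxa TPM was 37.2, 31.6 and 33 when heterozygous and 22.1, 31.3 and 24.8 with LOH. Foxa2 was the most abundant Foxa transcript in all 6 libraries.

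**Figure D2:**
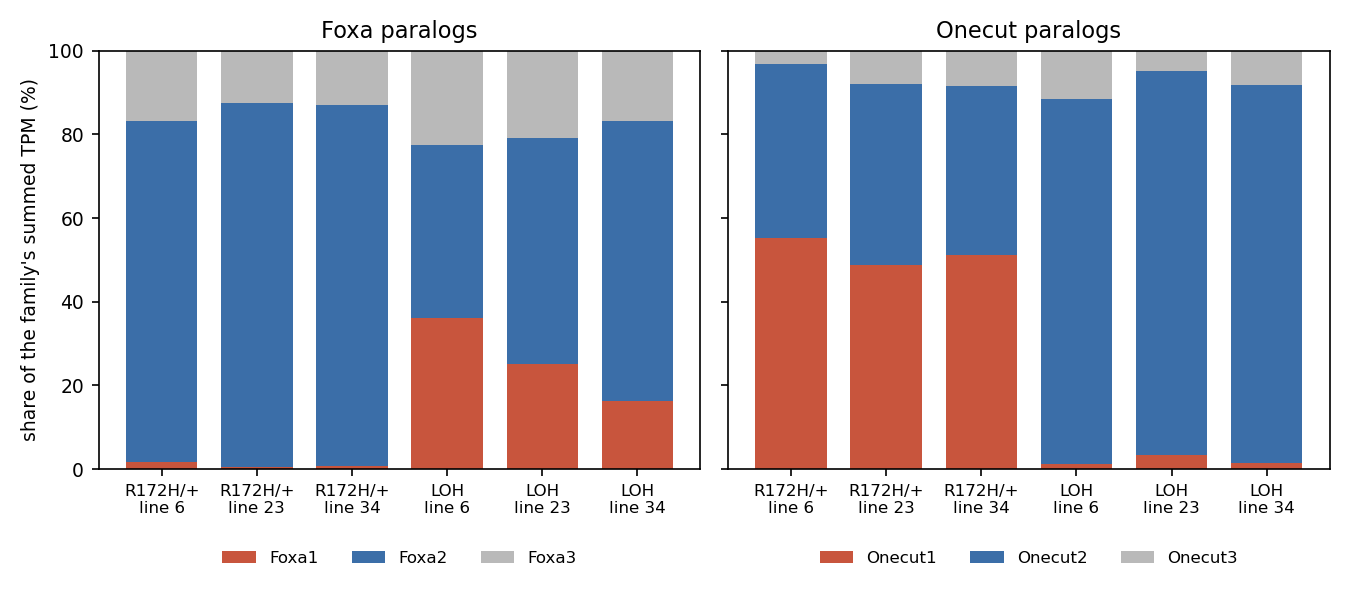
Share of the summed TPM of each family (percent, stacked bars) taken by Foxa1, Foxa2 and Foxa3 (left) and by Onecut1, Onecut2 and Onecut3 (right), 1 bar per library. Foxa1 takes at most 1.72% in heterozygous libraries and 16.2% to 36.1% in LOH libraries, and Onecut1 takes 48.8% to 55.2% and then 1.21% to 3.36%.

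Nr5a2 (1:136842571-136960448, minus strand) had 790, 203 and 508 counts when heterozygous, against 40, 114 and 13 with LOH. As CPM these were 26.4, 15.1 and 17 against 2.33, 4.3 and 0.605. All LOH libraries were below all heterozygous ones, and line 34 held the lowest value. Nr5a2 fell by 3.0 on the log2 scale, 8.01-fold (SE 0.65, adjusted p = 0.0474). It ranked 709 by p among the genes tested, close to the threshold. With the line as a block the estimate was -3.30 with an adjusted p of 0.0814. The adjusted p was also above 0.05 without the LOH library of line 6 (0.0563) and without any 1 heterozygous library (0.148 to 0.169). Within lines the log2 ratios were -3.45, -1.79 and -4.62.

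The transcript estimates divide Nr5a2 among 5 isoforms with any count. Nr5a2-201, which starts at the window shown above, had 459, 145 and 343 counts when heterozygous and 31.9, 92.2 and 4.53 with LOH. Nr5a2-202, which starts inside the gene at position 136949562, had 292, 43.6 and 133 counts against 0, 3.92 and 4.46. Both were lower in every LOH library than in every heterozygous one. As a share of Nr5a2 TPM, Nr5a2-202 differed by -20.8 percentage points (exact two-sided permutation p = 0.2, adjusted 0.7 over 7 transcripts), and the shares overlapped. The LOH shares rest on 13 to 114 reads per library. Nr5a2-203 had at most 21.6 counts in any library, and its share differed by 28.3 points (exact permutation p = 0.1, adjusted 0.7). For Foxa2 the transcript Foxa2-202 carried 82.7% to 91.2% of the TPM in every library.

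**Figure D3:**
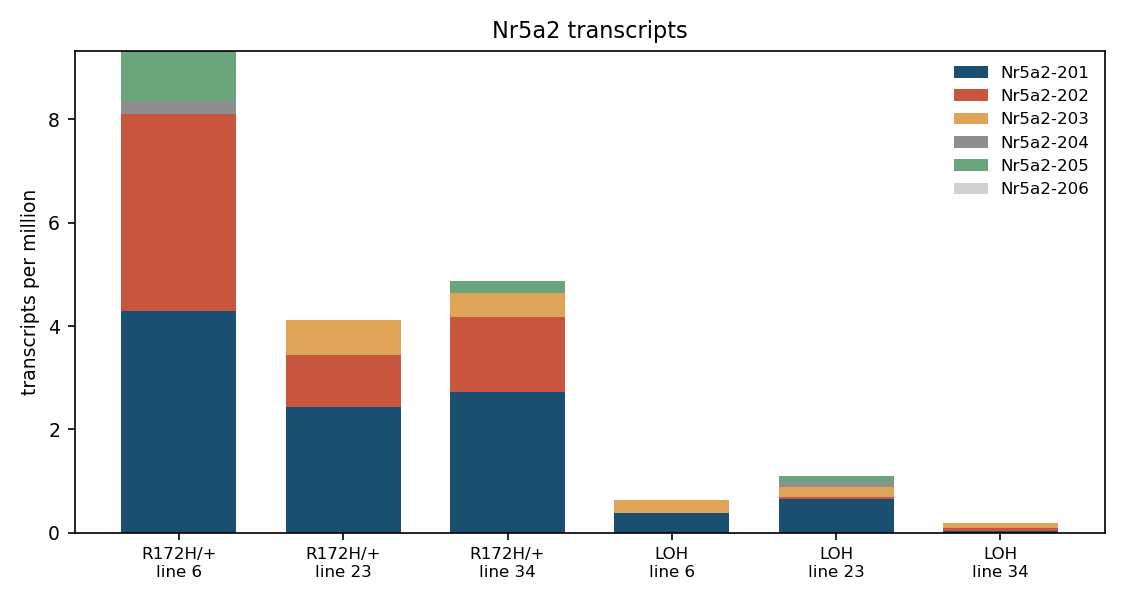
TPM of the annotated Nr5a2 transcripts (stacked bars) in each library. The height falls from 4.11 to 9.33 TPM in heterozygous libraries to 0.17 to 1.12 TPM in LOH libraries, and Nr5a2-201 (dark blue) and Nr5a2-202 (red) make up most of the heterozygous bars.

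Prox1 (1:190118035-190170714, minus strand), a homeobox factor of early pancreatic progenitors and of lymphatic endothelium, was near the limit of detection. It had 37, 2 and 23 counts when heterozygous and 1 count in each LOH library. The low-count filter removed it, so it has no place in the main test. The summed counts were 62 against 3, a ratio of 18.3 per unit of library size (exact 95% interval 5.99 to 91.3, counting error only), and line 23 had 2 against 1. With no filter edgeR's adjusted p was 0.044, beside 3.62% of all genes called. Flt4, a lymphatic endothelial marker, was at 7.04, 2.89 and 2.14 CPM against 0.757, 1.06 and 1.3 CPM in LOH (adjusted p = 0.0833). The 7 blood and lymphatic endothelial markers summed to 2.27 to 7.21 CPM in the heterozygous and 1.43 to 3.55 CPM in the LOH libraries. Among these markers Tek went the other way, with 0, 1 and 2 counts against 43, 0 and 0, and took most of the highest LOH sum, that of line 6. Kdr had counts in the LOH libraries of lines 23 and 34 (6 and 4), and Pecam1 and Lyve1 had at most 4 counts in any library. The part of such cells in the Prox1 counts was not tested.

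Onecut2 (chromosome 18, plus strand), a cut-homeobox factor related to Onecut1, had both signs over the lines. It had 117.7, 40.1 and 44 CPM when heterozygous and 70.6, 214.5 and 191.3 CPM with LOH. The LOH library was higher in lines 23 and 34 and lower in line 6, whose heterozygous library was the highest of its group. The log2 ratios were -0.74, 2.42 and 2.12, and the difference did not pass (1.24 ± 0.55 SE, adjusted p = 0.216). Without both libraries of line 6 it was 2.24, with an adjusted p of 0.0376, beside 9.66% of all genes called in that fit.

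Onecut1, the paralog that drives pancreatic duct and endocrine progenitors, fell by 4.33 on the log2 scale (SE 0.84, adjusted p = 0.0365, and 0.106 with the line as a block). The filter's minimum was reached in all 3 heterozygous libraries and in 2 of 3 LOH libraries, so only the heterozygous group met it in full. With 4 counts in the LOH library of line 6, Onecut1 was not tested where every library had to hold at least 10 counts. Its levels were 42.4, 12.4 and 15.5 CPM against 0.233, 2.27 and 0.885 CPM. Onecut2 took 41.6%, 43.3% and 40.6% of the summed Onecut TPM when heterozygous and 87.2%, 91.8% and 90.5% with LOH. The summed Onecut TPM itself ran from 7.26 to 27.6 in the heterozygous and 5.77 to 15.2 in the LOH libraries, and overlapped. Among the 8 relatives of the genes described, 3 were tested and 1 passed, beside 5.21% of all genes. That 1 was Onecut1, with the limit of the filter given above. Prox2 had 1.8, 1.26 and 1.3 CPM against 2.74, 4.87 and 1.72 CPM (adjusted p = 0.2).

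Pdx1 (5:147269959-147275848, plus strand), whose promoter drives Cre in these mice, stood at 25.8, 25.2 and 29 CPM when heterozygous. With LOH it was at 36.8, 13.8 and 45.1 CPM: higher in lines 6 and 34, and lower in line 23. The estimate was 0.26 ± 0.40 SE on the log2 scale with an adjusted p of 0.718, and it turned negative on the TPM scales and without line 34. The antisense gene Plut overlaps its 5′ end and had 69, 33 and 62 counts against 79, 71 and 31.

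Sox9 (11:112782224-112787760, plus strand), an HMG-box factor required for pancreatic progenitors and kept in ducts, was at 31.3, 26.9 and 19.9 CPM against 40.2, 41.7 and 30.7 CPM. It was higher in the LOH library of all 3 lines, although the groups overlapped narrowly. It did not pass (0.53 ± 0.24 SE, adjusted p = 0.214).

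**Figure D4:**
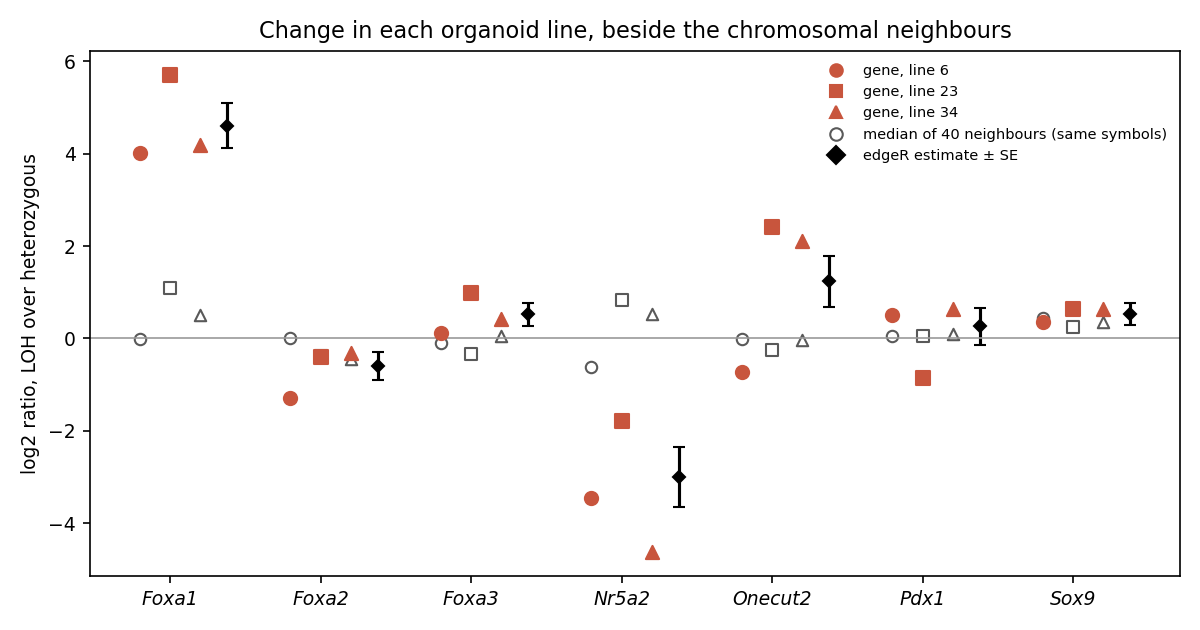
Log2 ratio of LOH over heterozygous in each organoid line for the 7 tested genes (red), and the edgeR estimate with its SE (black). Open symbols give the median over the 20 tested genes on either side of each gene on the chromosome. Foxa1 lies above 4 in all 3 lines and Nr5a2 at or below -1.79, while Onecut2 and Pdx1 have both signs.

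The order of levels per length, in mean TPM, was Foxa2 (28.7 ± 1.42 SD, n = 3), Pdx1 (15.1 ± 1.83), Sox9 (7.5 ± 2.38), Nr5a2 (6.11 ± 2.82), Onecut2 (6.07 ± 4.67), Foxa3 (4.84 ± 1.25), Foxa1 (0.353 ± 0.255) and Prox1 (0.157 ± 0.129) in the heterozygous group. Neighbours in that order whose libraries did not overlap were Foxa2 and Pdx1, Pdx1 and Sox9, and Foxa3 and Foxa1. In the LOH group the order was Foxa2 (14.2 ± 4.37), Pdx1 (13.7 ± 6.71), Onecut2 (10.1 ± 4.59), Sox9 (8.21 ± 1.86), Foxa1 (6.63 ± 2.26), Foxa3 (5.24 ± 1.20), Nr5a2 (0.643 ± 0.475) and Prox1 (0.0133 ± 0.00577). There the libraries lay apart between Foxa3 and Nr5a2 and between Nr5a2 and Prox1. Foxa1 was thus above 51.2% of tested genes in LOH and above 9% in the heterozygous group, and Nr5a2 above 14.7% and 45.4%.

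The neighbours on the chromosome are given as a description, since Foxa1 and Nr5a2 are singled out for their change. Over the 20 tested genes on either side, the median log2 fold change was 0.42 for Foxa1 and 0.34 for Nr5a2. It ran from -0.23 (Foxa2) to 0.33 (Sox9) for the other 6 genes, and was 0.06 over all genes tested. Within lines it was -0.01, 1.1 and 0.52 around Foxa1 and -0.62, 0.83 and 0.53 around Nr5a2. Over all genes tested it was -0.01, 0.03 and 0.06 within lines. The nearest tested gene after Foxa1, Ttc6, was named after its values were seen. It had 5, 1 and 3 counts when heterozygous and 9, 127 and 32 with LOH. It reached the test through the LOH libraries alone (0 of 3 heterozygous libraries at the filter's minimum of 0.386 CPM), so these counts are a description. Mipol1, on the other side, did not pass (0.96 ± 0.35 SE, adjusted p = 0.148).

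Of the 17 other regulators of ducts and progenitors, 14 were tested and 2 passed, beside 5.21% of all genes. With the block 1 passed, beside 1.47% of all genes. Elf3, an epithelial ETS factor, rose by 1.69 on the log2 scale (SE 0.20, adjusted p = 0.0164, 0.0453 with the block), from 66.2, 85 and 59.6 CPM to 207, 229 and 245 CPM. Hhex, a homeobox factor of ventral foregut and ducts, fell by 2.38 (SE 0.41, adjusted p = 0.0293, 0.0537 with the block), from 44.2, 51 and 46.9 CPM to 3.9, 11.1 and 12.2 CPM. Hnf4a, at 180, 181 and 176 against 255, 169 and 162 CPM, did not pass (adjusted p = 0.742). The median log2 fold change of the 14 was 0.11.

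Of 14 endocrine regulators, Nkx2-2 and Insm1 passed the low-count filter, through the heterozygous libraries alone (0 of 3 LOH libraries reached its minimum of 0.386 CPM). Their direction was thus fixed by the filter, so their counts are given as a description. Nkx2-2, needed for beta cells, had 103 summed counts in the heterozygous and 1 in the LOH libraries, a ratio of 91.4 per unit of library size (exact 95% interval 16 to 3645, counting error only). Insm1, a zinc-finger factor of endocrine cells, had 32 against 1 (ratio 28.4, interval 4.74 to 1156). The acinar regulator Bhlha15 was the 1 of 3 tested (adjusted p = 0.339), and its high value was the LOH library of line 23, at 5.4 CPM.

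Of 16 duct markers 15 were tested, and 2 fell, beside 1.66% of all genes lower in LOH. These were Aqp1, a water channel (-2.31 ± 0.31 SE, adjusted p = 0.0182, 0.0534 with the block), and Ambp, a secreted protease inhibitor precursor (-4.82 ± 0.83 SE, adjusted p = 0.0284, 0.0458 with the block). Cftr, the chloride channel of ducts, passed with the block (3.14, adjusted p = 0.0431) and not without it (adjusted p = 0.0602). Ambp and Cftr were the 2 duct markers called with the block, beside 1.47% of all genes. The keratins Krt18 (adjusted p = 0.996) and Krt19 (adjusted p = 0.204) did not pass. The median log2 fold change over the 15 was 0.0046.

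Of the 11 textbook targets of Nr5a2, 4 reached the test. Nr0b2 did so through the heterozygous libraries alone, so its counts too are a description. Nr0b2, a nuclear receptor that acts as a corepressor of Nr5a2, had 69 counts against 2 (ratio 30.6, exact 95% interval 8.16 to 258, counting error only). Of the other 3 tested, 0 passed. Ccnd1, the cyclin D1 gene, had 896, 900 and 954 CPM against 377, 273 and 625 CPM (adjusted p = 0.0818). Scarb1, a lipoprotein receptor gene, had an adjusted p of 0.75. Apoa1, a listed target outside the main test and named after its values were seen, went the other way. It had 0, 1 and 5 counts when heterozygous and 105, 114 and 7 with LOH. Of 22 acinar markers 3 were tested and 0 passed without the block. Pnliprp2, a lipase gene, was higher in LOH and passed with the block (4.68, adjusted p = 0.0397, against 0.0855 without), beside 1.47% of all genes. It had 7, 7 and 1 counts when heterozygous and 194, 286 and 6 with LOH, so line 34 stayed low. Pnliprp2 reached the low-count filter's minimum in 1 heterozygous and 2 LOH libraries, so neither group met it in full.

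**Figure D5:**
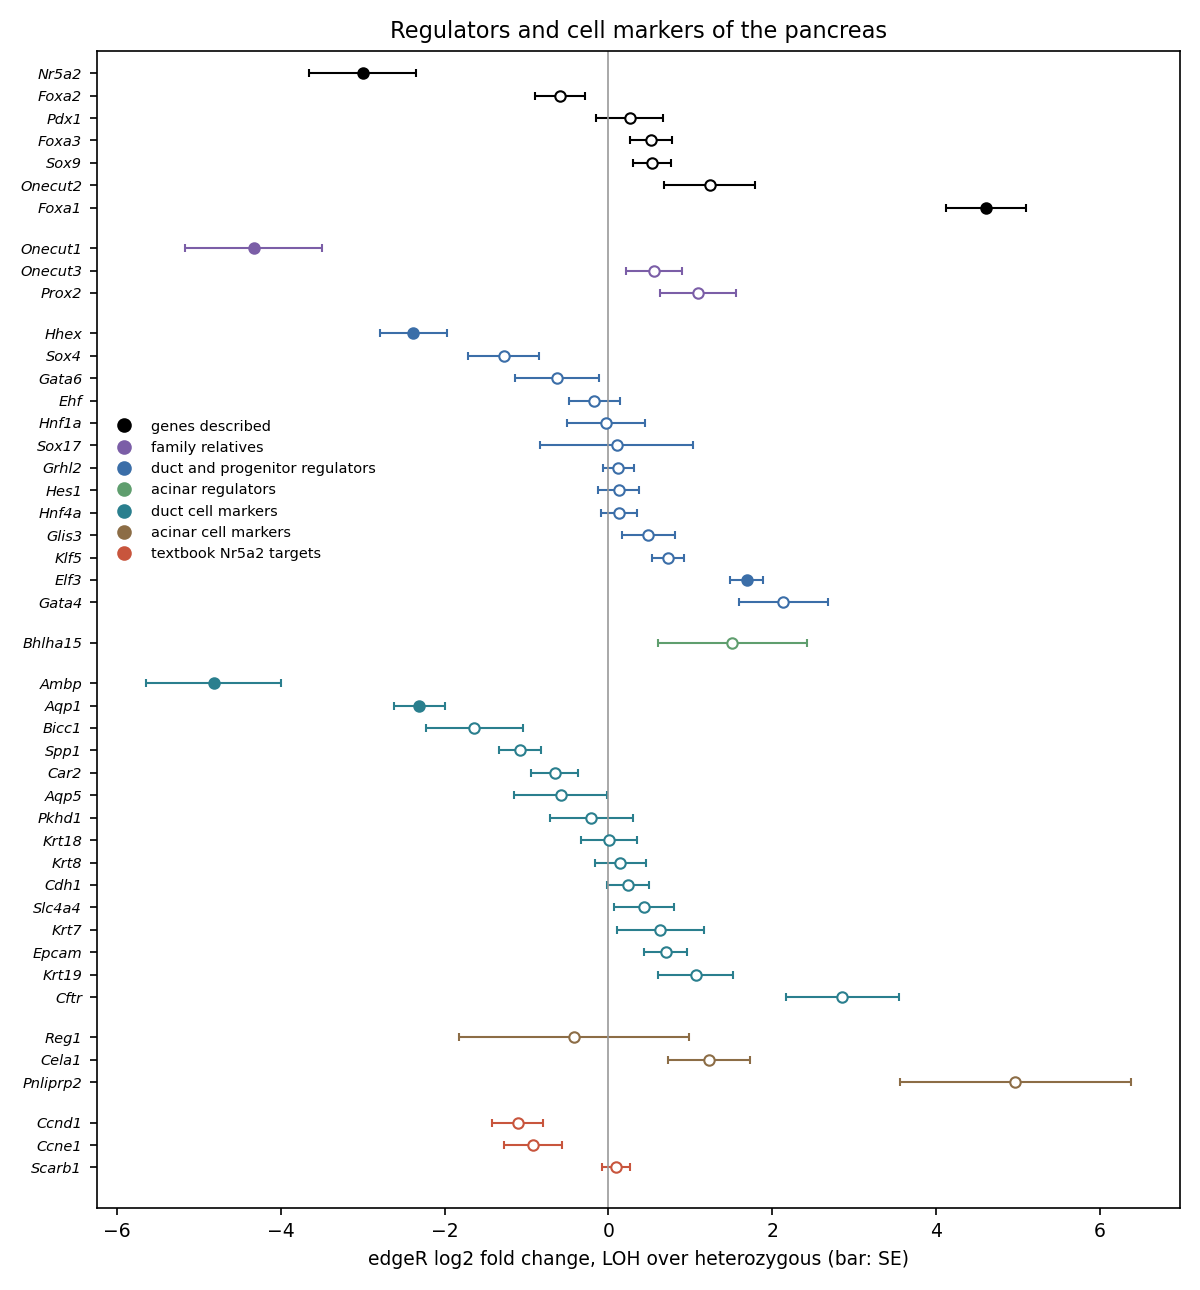
EdgeR log2 fold change of LOH over heterozygous with its SE for the genes described and for relatives, regulators, cell markers and textbook Nr5a2 targets. Filled symbols have an adjusted p under 0.05, and genes with at most 3 counts in every library of a group are left out, Nkx2-2, Insm1 and Nr0b2 among them. Foxa1 and Nr5a2 lie at 4.61 and -3.0, and the medians of the duct regulators and duct markers lie near 0.

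The genes whose log2 CPM followed each gene most closely over the 6 libraries, among 10074, are given as a description of these libraries. For Foxa1 they were Pxylp1 and Dsc2 (r = 0.993 each), and for Nr5a2 Cdk5rap2 and Akr1c14 (r = 0.996 each). For Foxa2 they were Hnrnph3 and Tbk1, for Foxa3 Fryl and Arid1b, for Sox9 Glg1 and Wipf2, for Onecut2 Usp32 and Lmbrd2, and for Pdx1 Arcn1 and Ctsz. All 14 correlations were at least 0.979, all rest on the same libraries and depth, and on the log2(TPM + 1) scale 4 of the 14 kept a place among the closest 2. On that scale Pxylp1 had r = 0.628 with Foxa1. On log2 CPM, from 25 (Pdx1 and Sox9) to 176 genes (Onecut2) had an r above 0.95 with a gene described, 122 of them for Foxa1.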

How the data were processed

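Per the labels, the libraries were stranded total RNA (TruSeq Stranded Total RNA) of 6 organoid cultures. The submitters' processing notes name FastQC 0.11.5, STAR 2.5.2b, RSEM 1.3.0, DESeq2 1.44.0 and GRCm38.p5, with no role or order. The strand setting and read filters are not given in the sources used here. The authors deposited expected counts and TPM per gene and transcript over 53379 genes of GENCODE release 16, per the file names. The deposited normalized signal equalled truncated expected counts divided by 1 size factor per library, and was used only for gene names and for an alternative gene set. The transcript shares given here are transcript TPM over gene TPM. The authors' own transcript shares in percent were not used. Their effective lengths (another kind of value), as deposited, entered 1 check. Coordinates came from GENCODE release 21.

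Expected counts were rounded (for the 8 genes they were whole). Genes were kept by filterByExpr, scaled by TMM and tested two-sided in edgeR 4.0.16 (glmQLFit and glmQLFTest, R 4.3.3), with Benjamini-Hochberg adjustment over 14537 genes at 0.05. Shares were tested by exact permutation. DESeq2 1.42.0 and limma 3.58.1 (genes reaching 1 TPM in 3 libraries) were alternatives, beside other scalings, filters, the line as a block, and libraries or lines left out. Per-library log2 ratios used a prior count of 2. The fits were tested on simulated data. The genes named in each list were those past the threshold in either fit (at most 6) and the 2 highest by mean TPM; each tested gene also had its 2 most similar genes (mean CPM 5 or more), and Trp53 was always named. The genes and lists were chosen with earlier results of these data known. A further allele that all cultures share and a gene of the regulator list are not reported here.

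Titles give same-numbered libraries the same organoid line, which pairs them. Deviations from group means correlated at -0.3, 0.01 and 0.29 within lines 6, 23 and 34, and from -0.39 to 0.3 between lines. Nothing says that lines came from separate mice, so p-values measure the spread between these libraries. Intervals and floors cover counting error only.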

Additional observations from a re-analysis of the deposited data

Results flagged for a closer look

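The log2 ratio of LOH over heterozygous had both signs over the organoid lines for Pdx1 and Onecut2, and the difference between lines was not tested, since each line has 1 library per genotype. For Pdx1 the ratios were 0.51, -0.86 and 0.63 in lines 6, 23 and 34, a range of 1.49. For Onecut2 they were -0.74, 2.42 and 2.12, a range of 3.15. In all, 44.5% of genes tested had the same direction in all 3 lines.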

How the results depend on the processing

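Foxa1 was higher and Nr5a2 lower in LOH under every alternative that tested them (18 for Foxa1, 19 for Nr5a2). Over these the log2 fold change of Foxa1 ran from 2.46 to 5.15 (adjusted p 2.15e-19 to 0.143) and that of Nr5a2 from -3.90 to -2.08 (adjusted p 3.72e-05 to 0.17). Foxa1 lost its call in 5 of them and Nr5a2 in 8. Of the 7 genes tested, 2 passed; with the replicate block 1 did, with at least 10 counts in every library 1 (Nr5a2, since Foxa1 was not tested), and with 1 library or 1 line left out 0 to 2. On either TPM scale (Foxa2 added) and with no filter (Prox1 added) it was 3. Of all genes, 16% passed on log2(TPM + 1) and 14.7% on log2(TPM + 0.1). With no filter 3.62% passed, and with at least 10 counts in every library 5.26%. The replicate block changed no call among the 7 besides that of Nr5a2. Over all genes, 757 passed in the main test, 213 with the replicate block, 2290 with DESeq2, 1911 on log2(TPM + 1) and 1753 on log2(TPM + 0.1), and 0 to 2449 with libraries left out. Where that count was 0, in edgeR, 2097 to 2966 genes had an unadjusted p under 0.05. On the TPM scales 280 and 267 of the calls were higher in LOH and 1631 and 1486 lower, against 516 and 241 in the main test. Of the relatives and regulators 5 passed. Nkx2-2 and Insm1, whose direction the filter fixed, were included. So was Onecut1, for which only the heterozygous group met the filter's minimum in full. With DESeq2 8 passed, with at least 10 counts 2 (Elf3 and Hhex), with the block 1, and with libraries left out 0 to 6. Of the markers and Nr5a2 targets 3 passed, Nr0b2, whose direction the filter also fixed, included. With DESeq2 it was 8, with at least 10 counts 1, on either TPM scale 7, with no filter 7, and with libraries left out 0 to 7. The log2 fold change of Pdx1 was -0.29 on log2(TPM + 0.1), -0.26 on log2(TPM + 1), and -0.080 to 0.62 over the fits with libraries left out. With each library left out, the share difference in percentage points ran from -1.34 to 0.659 for ENSMUST00000115145.3, from -2.75 to 2.3 for Foxa2-201, from -1.45 to 3.38 for Foxa2-202, from -12.9 to 5.06 for Nr5a2-201, from -0.609 to 1.35 for Onecut2-201. The neighbour median moved for Pdx1 to 0.16 with 10 genes and 0.10 with 50 on either side, for Sox9 to 0.12 with 50, for Foxa2 to 0.093 and Onecut2 to 0.13 with 10, and for Prox1 to 0.0060 with 50. Of the 14 most similar genes 4 remained on the log2(TPM + 1) scale. The cause of these changes was not tested. Leaving out a library leaves 2 in its group, and leaving out a line leaves 2 pairs. Prox1, at 1 count in each LOH library, is limited by depth.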
